A study of Homo sapiens with 6 samples.

Results

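The genes described here are 57 regulators of the cell division cycle: cyclins, cyclin-dependent kinases (CDKs) and their inhibitors, the RB family with the E2F and DP transcription factors, the phosphatases and kinases that switch CDK1 on and off, the polo-like and Aurora kinases, the MYC network, FOXM1 and SKP2. They were chosen by symbol, as a functional list, but with earlier results of these data known. All 57 matched a row among the 58051 Ensembl gene IDs of the deposited count table. Of these, 54 had enough reads to be tested, out of 16690 genes tested in all. The cells were A375, an established human melanoma line, kept without serum for 2 h. One set then received recombinant human TGFB1, the ligand that starts TGF-beta signalling, at 10 ng/mL, and the other only the solvent (4 mM HCl and BSA at 1 mg/mL), in both cases over a further 2 h. Each group, TGFB1 and Vehicle, has 3 libraries, described by the submitters as technical triplicates, so each p-value measures only the spread between these libraries. All values rest on a single cell line.

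Progress through the cell cycle is driven by CDKs, each active only with a cyclin partner. D-type cyclins with CDK4 or CDK6 and E-type cyclins with CDK2 phosphorylate RB in G1, which frees E2F factors to switch on the genes of DNA replication, and A- and B-type cyclins with CDK1 and CDK2 carry the cell through S phase and mitosis. In epithelial and many other cells TGF-beta is known for stopping this cycle in G1, by lowering MYC and CDC25A and by raising the CDK inhibitor genes CDKN2B and CDKN1A, and many melanoma cells are known to have lost part of that arrest.

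Library totals ran from 32458753 to 34895075 counts with TGFB1 and from 24713894 to 34374668 counts in Vehicle. The Vehicle libraries were the more uneven group: pairs of them differed by 11.1 to 24.8 times the counting variance, against 5.0 to 8.76 times for pairs of TGFB1 libraries, and 553 genes were called with all libraries and 923 without Vehicle replicate 3. The pathway responded, since SMAD7, an inhibitor of the TGF-beta receptor that is itself a target of the pathway, stood at 63.6, 57.1 and 62.6 CPM with TGFB1 and at 7.81, 8.84 and 11.2 CPM in Vehicle (log2 fold change 2.70 ± 0.10, SE). CPM, the depth-scaled count, is taken here on library totals after TMM scaling. Of 8 melanocyte lineage genes, MITF (52.2 to 55.8 CPM with TGFB1, 59.4 to 65.2 CPM in Vehicle) and S100B (53.4 to 56.6 and 55.5 to 65.5 CPM) were well detected, DCT was low, the means of PMEL, MLANA, TYRP1 and TYR were under 1 CPM in both groups, and SOX10 had 0 counts in all 6 libraries, so the labelled origin shows in some of its defining markers but not in others. MITF was lower with TGFB1 (log2 fold change -0.23, adjusted p = 0.0355 by edgeR), and the part of this shift in the results below was not tested. Of 8 leukocyte and keratinocyte markers 6 were too low to test, and of the other 2, KRT14 averaged 16.5 CPM with TGFB1 and 14.5 CPM in Vehicle, and DSG3 0.629 and 0.825 CPM.

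Most of the cell cycle genes differed little between the groups, and 6 passed the test. WEE1, PLK3, PLK1 and CDKN1C were higher with TGFB1, and CDKN1B and PLK2 were lower. Genes were called at an adjusted p under 0.05 in a quasi-likelihood fit by edgeR across all 16690 genes, with Benjamini-Hochberg adjustment, which is the source of every adjusted p below. DESeq2 and limma-voom called the same 6 members. In bulk libraries, fewer cells in a phase and less RNA per cell cannot be told apart. The 6 called make 11.1% of the 54 tested members, against 3.31% of all tested genes; by direction, 2.43% of all tested genes were called higher and 0.887% lower. At an unadjusted p under 0.05 there were 16 members, where all tested genes gave 12.3%. The groups did not overlap for 16 members (29.6%), 9 of them higher and 7 lower with TGFB1, against 16.4% of all tested genes. Members were measured more precisely, with a median SE of 0.0632 against 0.114 over all tested genes. Their changes with the sign dropped were smaller, at a median of 0.0837 on the log2 scale against 0.105. Scatter between libraries enters these medians too, and it differs between the members and all tested genes, so the medians cannot be compared as sizes of response. Whether the members responded more than other genes was not tested, nor was the part of precision in the higher shares. The median log2 fold change of the 54 was -0.01, like the -0.01 of all tested genes, and 42 of the 54 had a log2 fold change smaller than 0.2 in size. The number of members called higher was 4 with all libraries and 2 without TGFB1 replicate 1, without TGFB1 replicate 3 or without Vehicle replicate 1, because PLK1 and CDKN1C then missed the threshold.

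**Figure D1:**
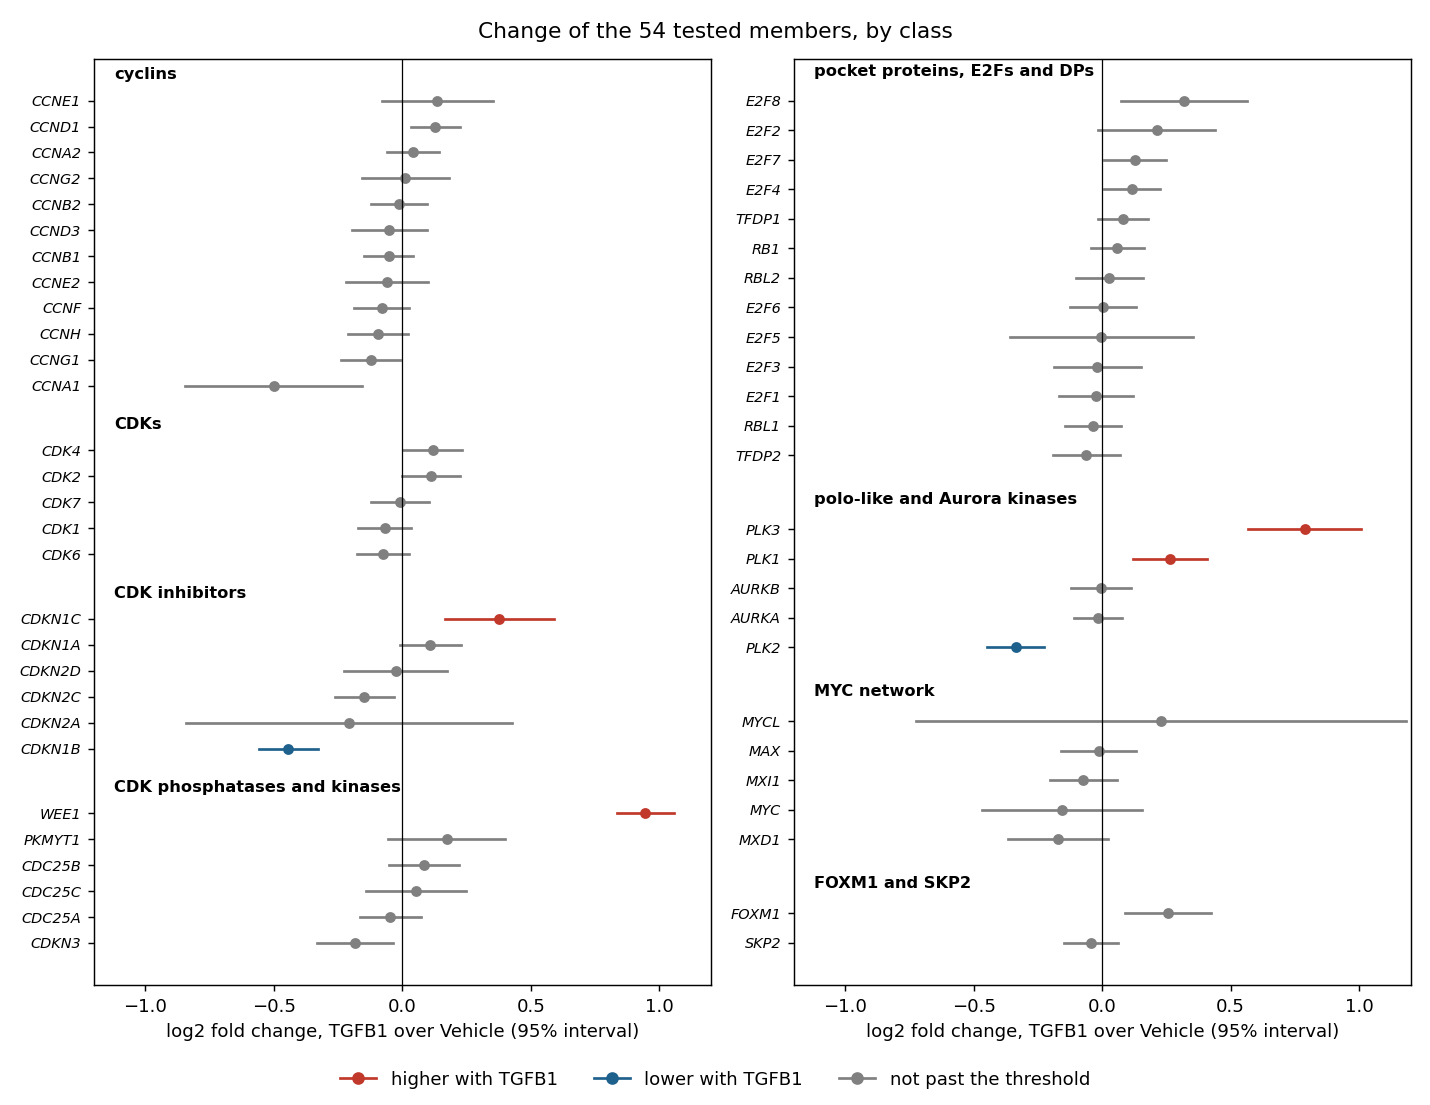
Log2 fold change of each of the 54 tested members, TGFB1 over Vehicle, with its 95% interval, grouped by class; red and blue mark members past an adjusted p of 0.05, grey the others. WEE1 (0.95) and PLK3 (0.79) lie farthest right, CDKN1B (-0.44) and PLK2 (-0.34) are called to the left, and the cyclins and CDKs sit near 0 except CCNA1, whose interval is wide.

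WEE1 had the largest change among the 54 tested members. Its protein kinase holds CDK1 inactive by phosphorylating a tyrosine in its ATP-binding site, which delays entry into mitosis. It stood at 141.2, 137.8 and 135.4 CPM in TGFB1 replicates 1 to 3, against 74.1, 68.5 and 72.6 CPM in Vehicle replicates 1 to 3. Every TGFB1 library was far above every Vehicle library, and the 3 values within each group lay close together. The log2 fold change was 0.95 ± 0.05 (SE), a 1.93-fold rise with an adjusted p of 7.7e-15, and it was called under all 14 alternative settings, between 0.91 and 0.97. The gene lies on chromosome 11 at 9573681 to 9593457 (GRCh38, GENCODE 29), and 1.13% of its exonic bases are shared with another gene, a small nucleolar RNA gene with 0 counts.

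The other genes that set the phosphorylation of CDK1 did not pass. PKMYT1, whose membrane-bound kinase also phosphorylates CDK1, stood at 20.2, 16.8 and 20.8 CPM with TGFB1 and at 15.2, 15.4 and 20.3 CPM in Vehicle, so the groups overlapped (log2 fold change 0.17, 95% interval -0.05 to 0.40, adjusted p = 0.593). Of its exonic bases 24.5% are shared with PAQR4 on the other strand. The CDC25 phosphatases undo what WEE1 and PKMYT1 do. CDC25B had a log2 fold change of 0.09 (adjusted p = 0.681) and CDC25C one of 0.05 (adjusted p = 0.898). CDKN3, which encodes a phosphatase that removes the activating phosphate of CDKs, was lower in every TGFB1 library (34.3, 36.7 and 34.8 CPM) than in any Vehicle library (41.6, 38.8 and 39.8 CPM), but did not pass (log2 fold change -0.18 ± 0.07, adjusted p = 0.238). Per kilobase of exon not shared with another gene, the summed level of WEE1 and PKMYT1 was 20.7 ± 0.693 CPM per kb with TGFB1 and 12.8 ± 0.957 CPM per kb in Vehicle (SD, n = 3 each), while that of the 3 CDC25 genes was 46.1 ± 1.75 and 45.3 ± 0.363 CPM per kb. WEE1 made up 73.0% ± 2.32 of the WEE1 and PKMYT1 sum with TGFB1 and 61.5% ± 3.78 of it in Vehicle.

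The polo-like kinases moved in different directions. PLK3, a stress-responsive member of the family, stood at 19.0, 17.3 and 18.5 CPM with TGFB1 and at 10.4, 9.59 and 11.7 CPM in Vehicle. The groups were well apart, and the log2 fold change was 0.79 ± 0.11 (SE, adjusted p = 3.8e-06). PLK2, known for roles in centriole duplication and in the response to stress, stood at 182.1, 214.1 and 203.2 CPM with TGFB1 and at 261.7, 249.5 and 245.5 CPM in Vehicle. Every TGFB1 library was below every Vehicle library, and PLK2 fell by 0.34 on the log2 scale (SE 0.05, adjusted p = 5.9e-05). Both calls held under all 14 alternatives, with ranges of 0.72 to 0.87 for PLK3 and -0.39 to -0.27 for PLK2. PLK1, the kinase that drives entry into and passage through mitosis, stood at 95.7, 84.5 and 96.6 CPM with TGFB1 and at 75.4, 68.8 and 86.0 CPM in Vehicle. Its groups overlapped, since Vehicle replicate 3 was above TGFB1 replicate 2. It passed with a difference of 0.26 ± 0.07 on the log2 scale (SE, adjusted p = 0.029) but did not with total-count scaling (0.112), nor without TGFB1 replicate 1 (0.192), TGFB1 replicate 3 (0.18), Vehicle replicate 1 (0.0815) or Vehicle replicate 2 (0.269). PLK1 shares 11.6% of its exonic bases with an antisense gene that had 0 to 5 counts per library.

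Per kilobase of unshared exon PLK2 was the most abundant of the 3, at 60.3% ± 3.36 of their summed level with TGFB1 and 71.1% ± 2.60 in Vehicle, PLK1 followed at 32.0% ± 2.83 and 24.7% ± 2.28, and PLK3 held 7.75% ± 0.561 and 4.17% ± 0.324 (SD, n = 3 each). The Aurora kinase genes, whose products act on centrosomes and on the kinetochore, stayed close to level. AURKA had 277.9, 282.8 and 278.0 CPM with TGFB1 and 284.1, 284.1 and 280.0 CPM in Vehicle (log2 fold change -0.02, 95% interval -0.11 to 0.08), and AURKB had a log2 fold change of -0.004 (95% interval -0.12 to 0.11). PLK3 lies on chromosome 1 at 44800225 to 44805990, PLK2 on chromosome 5 at 58453982 to 58460260 and PLK1 on chromosome 16 at 23677656 to 23690367.

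**Figure D2:**
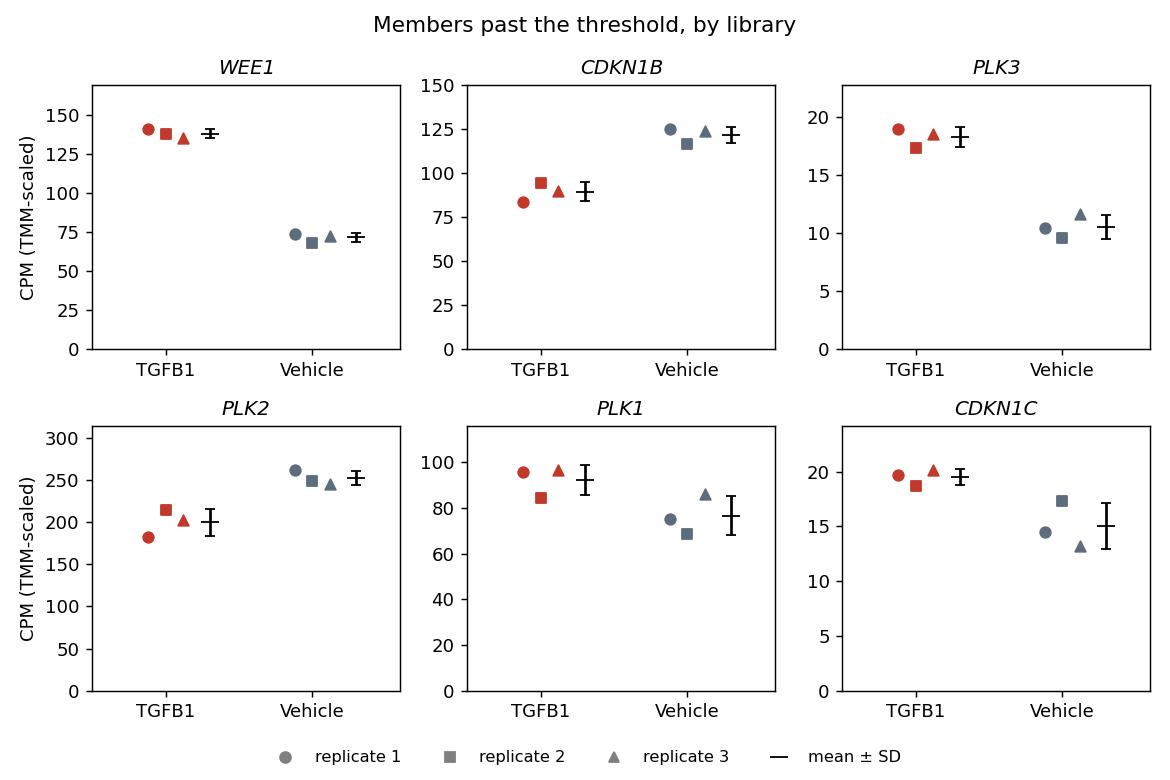
CPM on TMM-scaled totals in each library for the 6 members past the threshold, TGFB1 on the left and Vehicle on the right of each panel; the symbol shape gives the replicate, and the bar is the mean ± SD of 3 libraries. The groups are apart for WEE1, CDKN1B, PLK3, PLK2 and CDKN1C and overlap for PLK1, where Vehicle replicate 3 (86.0) lies above TGFB1 replicate 2 (84.5).

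The CDK inhibitors fall into the CIP/KIP genes CDKN1A, CDKN1B and CDKN1C, which encode p21, p27 and p57, and the INK4 genes CDKN2A to CDKN2D, whose products act on CDK4 and CDK6. CDKN1B stood at 84.0, 94.7 and 90.0 CPM with TGFB1 and at 125.2, 116.4 and 123.8 CPM in Vehicle. Every TGFB1 library was below every Vehicle library, and the log2 fold change was -0.44 ± 0.06 (SE, adjusted p = 1.0e-06), called under all 14 alternatives (-0.48 to -0.40). CDKN1C moved the other way, at 19.7, 18.7 and 20.1 CPM with TGFB1 and 14.5, 17.3 and 13.2 CPM in Vehicle. Its groups did not overlap, but TGFB1 replicate 2 and Vehicle replicate 2 were close. The log2 fold change of 0.38 ± 0.10 (SE) had an adjusted p of 0.0354, and it missed the threshold without TGFB1 replicate 1 (0.154), 2 (0.0592) or 3 (0.169) and without Vehicle replicate 1 (0.0926) or 3 (0.125). CDKN1B lies on chromosome 12 at 12715058 to 12722371 and CDKN1C on chromosome 11 at 2883213 to 2885773.

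CDKN1A, the p21 gene of the textbook arrest, stood at 79.9, 76.0 and 78.8 CPM with TGFB1 and at 75.8, 72.0 and 69.9 CPM in Vehicle. The groups did not overlap, by a margin of less than 1 CPM, and the change did not pass (log2 fold change 0.11, 95% interval -0.01 to 0.23, adjusted p = 0.471). CDKN2B, the other inhibitor gene of that program, had 0 counts in all 6 libraries, which allows a level of up to 0.0921 CPM in the TGFB1 library and 0.123 CPM in the Vehicle library with the highest limit (3 counts each, counting error only). CDKN2A, its neighbour on chromosome 9, had 33, 52 and 48 counts with TGFB1 and 37, 52 and 48 counts in Vehicle, with no call (adjusted p = 0.875). MTAP, the next gene along, had 8488 to 9482 counts with TGFB1 and 7228 to 9424 counts in Vehicle, so low counts did not extend to MTAP. CDKN2B-AS1, which overlaps CDKN2A on the other strand, had 0, 0 and 1 counts with TGFB1 and 6, 1 and 3 counts in Vehicle. Both genes were named after their values were seen. CDKN2C, which encodes p18, was below Vehicle in every TGFB1 library (91.6, 87.9 and 92.4 against 95.1, 100.8 and 105.2 CPM) without passing (log2 fold change -0.15, adjusted p = 0.199), and CDKN2D had a log2 fold change of -0.02 (adjusted p = 0.964).

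Taken as levels per kilobase of unshared exon, the 7 inhibitor genes summed to 104.8, 103.8 and 107.0 CPM per kb with TGFB1 and to 116.5, 114.8 and 117.2 CPM per kb in Vehicle. All 3 TGFB1 sums were below all 3 Vehicle sums, but not every gene in them was lower. CDKN1B averaged 31.9 CPM per kb with TGFB1 and 43.3 CPM per kb in Vehicle. CDKN1A averaged 25.6 and 23.8 CPM per kb, and CDKN1C 7.87 and 6.05 CPM per kb, both higher with TGFB1. CDKN1B supplied 30.3% ± 2.01 of the sum with TGFB1 and 37.3% ± 1.10 in Vehicle, CDKN1A 24.4% ± 0.525 and 20.5% ± 0.895, and CDKN1C 7.48% ± 0.189 and 5.22% ± 0.786 (SD, n = 3 each). CDKN2C held 26.0% in both groups, and CDKN2A 0.316% with TGFB1 and 0.331% in Vehicle.

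**Figure D3:**
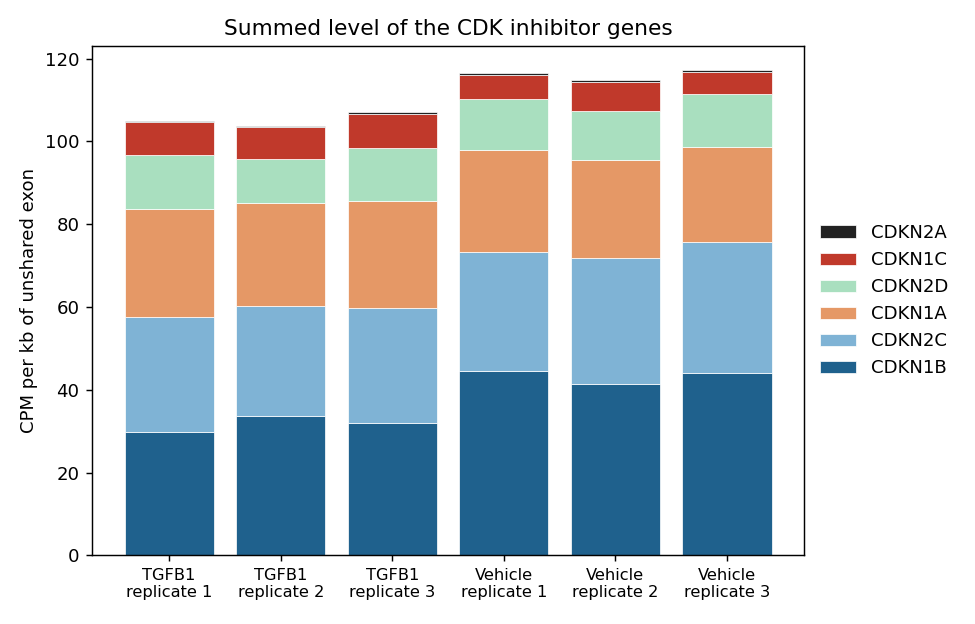
Level of the CDK inhibitor genes in CPM per kilobase of unshared exon, stacked within each library, TGFB1 libraries on the left and Vehicle libraries on the right; CDKN2B, at 0 counts, has no segment. The stacks end between 103.8 and 107.0 with TGFB1 and between 114.8 and 117.2 in Vehicle, and the lowest segment, CDKN1B, is the one that differs most.

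The promoters of the called members with an entry in RefSeq's promoter table (GRCh38.p14) are shown, which leaves out WEE1 and CDKN1C. Each line gives the 250 bases before the annotated start, 5′ to 3′ on the gene's strand, with matches to any of 7 motifs in capitals, on either strand: CHR (TTTGAA), E2F (TTTNNCGC), E-box (CACGTG), the core of the cAMP response element (TGACG), AP-1 (TGANTCA), the SMAD half-site (CAGAC) and the CCAAT box (CCAAT). No capital stretch here is shared by 2 motifs. The windows are chr12:12717118-12717367, plus strand for CDKN1B, chr1:44800127-44800376, plus strand for PLK3, chr5:58460087-58460336, minus strand for PLK2 and chr16:23678639-23678888, plus strand for PLK1.
PLK3: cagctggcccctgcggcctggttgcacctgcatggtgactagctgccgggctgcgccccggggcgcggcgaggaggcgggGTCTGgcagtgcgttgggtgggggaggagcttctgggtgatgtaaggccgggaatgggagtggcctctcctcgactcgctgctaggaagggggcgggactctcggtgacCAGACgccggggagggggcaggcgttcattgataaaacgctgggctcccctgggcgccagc
PLK1: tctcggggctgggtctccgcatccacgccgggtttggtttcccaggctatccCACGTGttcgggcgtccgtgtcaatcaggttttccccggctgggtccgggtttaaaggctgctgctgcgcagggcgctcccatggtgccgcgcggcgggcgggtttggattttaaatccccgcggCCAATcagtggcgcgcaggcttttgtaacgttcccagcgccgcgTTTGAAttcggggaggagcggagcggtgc
PLK2: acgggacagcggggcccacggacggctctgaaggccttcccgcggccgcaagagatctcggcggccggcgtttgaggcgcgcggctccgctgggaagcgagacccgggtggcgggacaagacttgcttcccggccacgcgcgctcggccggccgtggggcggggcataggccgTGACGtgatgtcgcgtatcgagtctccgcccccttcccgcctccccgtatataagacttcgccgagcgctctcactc
CDKN1B: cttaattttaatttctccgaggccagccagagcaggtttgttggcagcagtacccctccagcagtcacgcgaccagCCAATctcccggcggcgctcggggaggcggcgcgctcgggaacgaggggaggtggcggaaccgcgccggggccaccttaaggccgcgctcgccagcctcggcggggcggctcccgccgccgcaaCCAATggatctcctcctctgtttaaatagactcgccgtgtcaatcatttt

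The RefSeq starts of all 4 genes lie inside the GENCODE spans given above, downstream of the outermost start. The PLK3 window held 2 SMAD half-sites, 170 and 61 bases before the start, a motif found in 37.8% of 27305 promoters of the same length. PLK1 held a CHR match 29 bases before its start (13.6% of promoters), a CCAAT box at 73 (33.0%) and an E-box at 198 (6.49%). PLK2 held 1 TGACG match at 77 bases (21.7%), and CDKN1B held 2 CCAAT boxes at 174 and 50 bases. None of the 4 windows had an AP-1 or E2F match, motifs found in 6.60% and 5.93% of all promoters. A match is only a run of letters in this window. The 45 members with an entry include 11 that act at G1/S, and 6 of those (54.5%) held an E2F match: CDC25A, E2F1, E2F2, E2F3, RBL1 and TFDP1. Of the 11 that act from S phase to mitosis, 5 (45.5%) held a CHR match, namely CCNB2, CCNF, CDK1, CDKN3 and PLK1, and 8 (72.7%) held a CCAAT box. SMAD half-sites were in 13 of the 45 (28.9%). Of those 6 G1/S genes 0 passed the test, and of those 5 with a CHR match PLK1 did. Over all tested genes 3.31% were called, and in groups this small these counts are a description only, with no link between motif and change tested.

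The 13 cyclin genes gave 0 calls among 12 tested, with 3 at an unadjusted p under 0.05 (CCND1, CCNA1 and CCNG1) and a median log2 fold change of -0.05. Over all tested genes 3.31% were called and 12.3% had an unadjusted p under 0.05, so in a class of this size 0 calls does not set the cyclins apart, nor do the counts of 0 in the classes below. CCND1, the D-type cyclin that made up 94.1% ± 0.254 of the D-type level per kilobase with TGFB1 and 93.4% ± 0.431 in Vehicle, stood at 481.6, 474.7 and 512.4 CPM with TGFB1 and at 446.0, 450.9 and 446.4 CPM in Vehicle. All TGFB1 libraries were higher, yet the change was small (log2 fold change 0.13, 95% interval 0.03 to 0.22) and did not pass (adjusted p = 0.164). CCND3 had a log2 fold change of -0.05 (adjusted p = 0.863). CCND2 was too low to test, at 1, 0 and 1 counts with TGFB1 and 5, 2 and 12 counts in Vehicle.

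CCNE1 and CCNE2, the E-type partners of CDK2, had log2 fold changes of 0.14 and -0.06 (adjusted p = 0.683 and 0.851), and 37.0% of the exonic bases of CCNE2 are shared with INTS8 on the other strand. CCNB1, the most abundant cyclin gene by CPM and the partner of CDK1 at mitosis, stood at 510.8, 539.5 and 520.1 CPM with TGFB1 and at 556.6, 557.6 and 515.7 CPM in Vehicle (log2 fold change -0.05, 95% interval -0.15 to 0.04). CCNB2 (-0.01), CCNA2 (0.04) and CCNF (-0.08), the last a ubiquitin ligase subunit, were likewise near 0. CCNA1, the cyclin A gene best known from the male germ line, had the lowest log2 fold change of all members (-0.50, 95% interval -0.84 to -0.16), at 5.57, 4.74 and 3.65 CPM with TGFB1 and 7.04, 5.78 and 6.95 CPM in Vehicle. Its groups did not overlap, but at this depth it did not pass (adjusted p = 0.122). CCNG1, a p53 target, stood at 309.8, 329.2 and 303.9 CPM with TGFB1 and 373.6, 346.7 and 307.1 CPM in Vehicle. It did not pass (adjusted p = 0.359) unless Vehicle replicate 3, its lowest Vehicle value, was left out (log2 fold change -0.20, adjusted p = 0.0129). CCNG2 (0.01) and CCNH, the partner of CDK7 (-0.09), did not pass either.

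None of the 5 CDK genes passed, with 1 at an unadjusted p under 0.05, CDK4. CDK6, the most abundant by CPM, stood at 519.4, 487.7 and 514.2 CPM with TGFB1 and at 509.9, 575.2 and 516.2 CPM in Vehicle (log2 fold change -0.07, 95% interval -0.18 to 0.03). CDK4 stood at 138.4, 135.5 and 125.2 CPM with TGFB1 and at 121.2, 115.2 and 131.2 CPM in Vehicle, with overlapping groups (log2 fold change 0.12, adjusted p = 0.391); 43.2% of its exonic bases are shared with TSPAN31. Per kilobase of unshared exon the order of this pair turned round, CDK4 holding 63.9% ± 1.56 of their sum with TGFB1 and 60.8% ± 2.94 in Vehicle. These shares rest on dividing CDK4 by 1799 unshared bases out of 3168 exonic bases. They would be too high for CDK4 if reads in the shared bases were counted, and the counting mode is not given. CDK2, the partner of the E- and A-type cyclins, was higher in every TGFB1 library (88.6, 92.5 and 88.5 CPM) than in any Vehicle library (81.6, 83.7 and 84.1 CPM) without passing (log2 fold change 0.11, adjusted p = 0.412). CDK1, the mitotic kinase, and CDK7, the kinase that activates other CDKs, had log2 fold changes of -0.07 and -0.01 (adjusted p = 0.656 and 0.982).

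The pocket proteins, E2Fs and DPs, 13 genes, all tested, gave 0 calls, 3 at an unadjusted p under 0.05 (E2F8, E2F7 and E2F4) and a median log2 fold change of 0.03. RB1, which encodes the founding member of the family that holds E2Fs in check, stood at 146.1, 143.6 and 140.4 CPM with TGFB1 and 136.2, 141.9 and 134.7 CPM in Vehicle (log2 fold change 0.06, 95% interval -0.05 to 0.16). RBL1 (p107) and RBL2 (p130) had log2 fold changes of -0.04 and 0.03. TFDP1, the DP partner of E2Fs and the most abundant gene of this class, was higher in every TGFB1 library (309.5, 297.4 and 304.1 CPM) than in any Vehicle library (281.7, 283.5 and 295.8 CPM), with a log2 fold change of 0.08 (adjusted p = 0.53), and TFDP2 had one of -0.06 (adjusted p = 0.789).

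E2F8, an atypical E2F that represses E2F targets, stood at 11.4, 13.7 and 12.4 CPM with TGFB1 and at 9.08, 9.82 and 11.1 CPM in Vehicle. Its groups did not overlap, and the log2 fold change of 0.32 (95% interval 0.07 to 0.56) did not pass (adjusted p = 0.195). E2F7, the other atypical E2F, was also above Vehicle in every TGFB1 library (87.1, 92.4 and 87.8 against 74.9, 85.1 and 84.3 CPM; log2 fold change 0.13, adjusted p = 0.358). The activators E2F1 (-0.02), E2F2 (0.21) and E2F3 (-0.02) had adjusted p-values of 0.951, 0.463 and 0.971. E2F4, the most abundant E2F per kilobase at 39.4% ± 1.89 of the E2F sum with TGFB1 and 38.1% ± 0.897 in Vehicle, stood at 152.9, 149.4 and 143.52 CPM with TGFB1 and at 139.7, 128.0 and 143.53 CPM in Vehicle, so its groups met at one pair of libraries (log2 fold change 0.12, adjusted p = 0.36). E2F5 and E2F6 differed by under 0.01 on the log2 scale, E2F5 with a wide interval (-0.36 to 0.35).

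MYC was expressed at a low level and did not pass. It stood at 7.25, 6.79 and 5.93 CPM with TGFB1 and at 6.38, 6.74 and 9.02 CPM in Vehicle, where replicate 3 alone lay above all TGFB1 libraries. The log2 fold change was -0.16 (95% interval -0.47 to 0.15, adjusted p = 0.77), and without Vehicle replicate 3 it was 0.020 (adjusted p = 0.98). The interval leaves room for a fall of 0.47 on the log2 scale and for a rise of 0.15. Its paralogs were scarcely detected: MYCL averaged 0.701 ± 0.189 CPM with TGFB1 and 0.601 ± 0.193 CPM in Vehicle (SD, n = 3 each), and MYCN had 1 count in 1 TGFB1 library and 1 count in 1 Vehicle library. MAX, the partner of all MYC proteins, had a log2 fold change of -0.01 (adjusted p = 0.977). MXD1, which competes with MYC for MAX, stood at 21.2, 17.5 and 21.2 CPM with TGFB1 and 22.5, 23.6 and 21.3 CPM in Vehicle (log2 fold change -0.17, adjusted p = 0.505), and its relative MXI1, the most abundant gene of the network, at 56.5, 59.8 and 56.4 CPM against 59.0, 64.7 and 58.0 CPM (-0.07, adjusted p = 0.731).

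CDC25A, which activates CDK2 and is lowered in the textbook arrest, stood at 74.9, 81.7 and 84.5 CPM with TGFB1 and at 85.7, 82.9 and 80.4 CPM in Vehicle. The groups overlapped (log2 fold change -0.05, 95% interval -0.17 to 0.07, adjusted p = 0.846), and without TGFB1 replicate 1 the log2 fold change was 0.002. Of the 4 genes of that program, 0 passed: MYC, CDKN1A and CDC25A gave the intervals above and CDKN2B was not detected. Over all tested genes 3.31% were called, so 0 calls among so few genes does not set this program apart. These are RNA levels after 2 h of TGFB1, and later times and protein levels were not measured here.

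FOXM1, the forkhead factor that drives the mitotic gene set, came nearest to the threshold among the uncalled members. It stood at 63.9, 51.7 and 56.97 CPM with TGFB1 and at 42.0, 48.4 and 53.7 CPM in Vehicle, with overlapping groups (log2 fold change 0.26 ± 0.08, adjusted p = 0.101). It passed without Vehicle replicate 3 (0.35, adjusted p = 0.0028), without TGFB1 replicate 2 (0.33, adjusted p = 0.03) and with no low-count filter (0.27, adjusted p = 0.0113). Of its exonic bases 15.9% are shared with ITFG2 on the other strand. SKP2, the ubiquitin ligase subunit that marks p27 for destruction, stood at 143.0, 149.1 and 139.8 CPM with TGFB1 and at 154.0, 148.5 and 142.9 CPM in Vehicle (log2 fold change -0.04, 95% interval -0.15 to 0.06, adjusted p = 0.828).

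**Figure D4:**
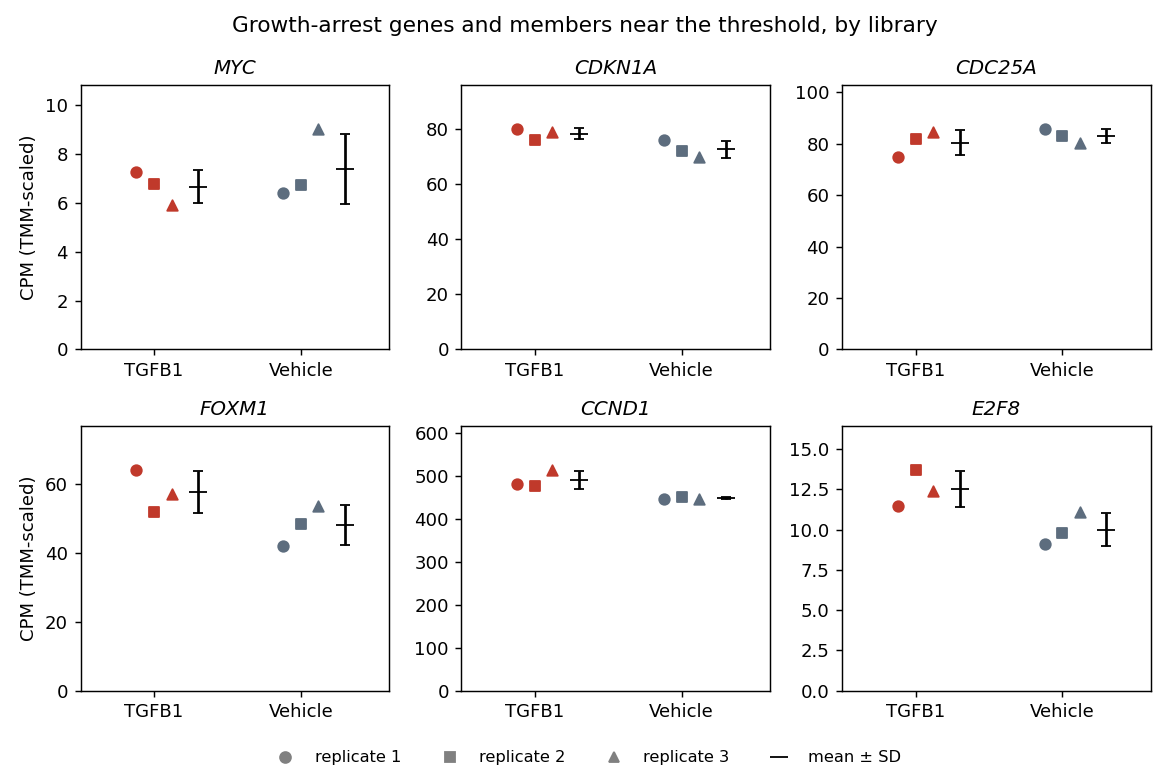
CPM on TMM-scaled totals in each library for MYC, CDKN1A and CDC25A, genes of the textbook TGF-beta arrest, and for FOXM1, CCND1 and E2F8, which are among the uncalled members with the smaller p-values; TGFB1 is on the left of each panel, the symbol shape gives the replicate, and the bar is the mean ± SD of 3 libraries. None passed the threshold, and the groups overlap for MYC, CDC25A and FOXM1.

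Sorted by the phase in which they act, members of G1 gave 1 higher and 1 lower call among 16 tested (CDKN1C and CDKN1B), those of G1/S gave 0 among 14, those of S phase to mitosis gave 2 higher and 0 lower among 15 (WEE1 and PLK1), and the 9 with no single phase gave 1 higher and 1 lower (PLK3 and PLK2). Over all tested genes 3.31% were called (2.43% higher and 0.887% lower), and with so few genes a phase these counts are a description only. The median log2 fold changes of the 4 phases were 0.01, -0.01, -0.004 and -0.07. For 48 of the 54 tested members the 95% interval lay wholly inside a 1.5-fold change in either direction; the other 6 were the called WEE1, PLK3 and CDKN1C and the scarce CCNA1, MYCL and CDKN2A.

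Other genes of the cell cycle and of pathways linked to it were counted in 5 companion lists, where 3.31% called is again the level over all tested genes. These lists, too, were chosen with earlier results of these data known. Of 25 DNA replication and E2F target genes 0 passed with edgeR, DESeq2 or limma-voom (3 at an unadjusted p under 0.05 in edgeR), with a median log2 fold change of -0.02. RRM2, a ribonucleotide reductase subunit gene, stood at 459.9, 432.4 and 475.3 CPM with TGFB1 and at 409.4, 443.7 and 485.0 CPM in Vehicle, and the helicase subunit gene MCM7 had a log2 fold change of -0.04. Of 28 mitotic genes 0 passed with any of the 3 tools (3 at an unadjusted p under 0.05 in edgeR), with a median of -0.04. Without Vehicle replicate 3, 2 genes of each of these lists passed, in a fit that called more genes in all (923 of 17193). TOP2A, the topoisomerase that untangles chromosomes, was lower in every TGFB1 library (1107, 1131 and 1113 CPM) than in any Vehicle library (1185, 1262 and 1182 CPM), a log2 fold change of -0.11 that did not pass (adjusted p = 0.208). CENPF, a kinetochore gene, had a log2 fold change of -0.08 (adjusted p = 0.764).

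Of 20 MYC target genes 1 rose and 1 fell. FBL, the methyltransferase gene of the nucleolus, stood at 149.4, 138.2 and 152.1 CPM with TGFB1 and at 191.1, 205.9 and 173.7 CPM in Vehicle (log2 fold change -0.38, adjusted p = 2.8e-05). SRM, the spermidine synthase gene, was higher (0.29, adjusted p = 0.0397) but missed the threshold in 7 of 14 alternatives. Of 15 p53 target genes 1 rose, PHLDA3, which encodes an AKT inhibitor, at 46.6, 41.3 and 49.9 CPM with TGFB1 and 30.3, 30.2 and 35.1 CPM in Vehicle (log2 fold change 0.53, adjusted p = 2.7e-05). Of 14 SCF and APC/C ubiquitin ligase genes 1 fell, FBXO5, whose product EMI1 inhibits the APC/C, at 59.1, 63.7 and 60.1 CPM with TGFB1 and 73.7, 70.9 and 76.7 CPM in Vehicle (log2 fold change -0.28, adjusted p = 0.00402); without TGFB1 replicate 1 its adjusted p was 0.0583.

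**Figure D5:**
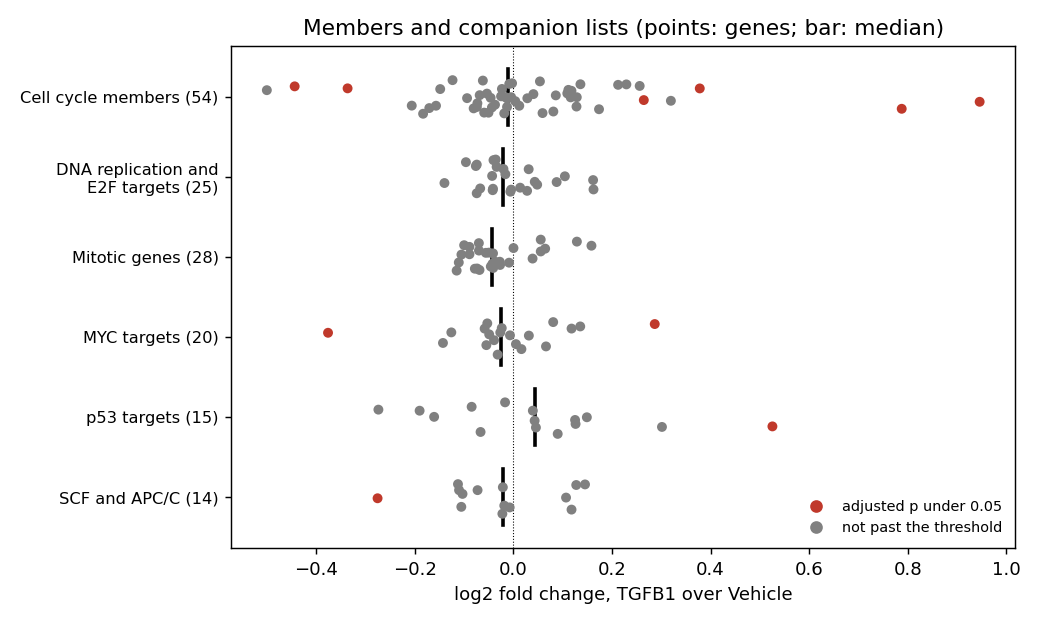
Log2 fold change, TGFB1 over Vehicle, of every tested gene among the cell cycle members and in 5 companion lists, with the number of tested genes in brackets; red points passed an adjusted p of 0.05, and the black bar is the median. The medians lie between -0.04 and 0.04, and WEE1 (0.95) and PLK3 (0.79) are the rightmost points of the members.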

How the data were processed

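Libraries were made from ribosome-depleted RNA, per the labels' protocols, although the labels name polyA RNA. The authors deposited raw read counts per Ensembl gene. Per the submitters' processing notes, cutadapt, TopHat2 2.1 and HTSeq were used with GRCh38; annotation release, counting mode and strand setting: not given in the sources used here. As a check, 19 coding genes had at least 99% of their exonic bases under opposite-strand exons, and 15 of them (78.9%) had 0 counts, against 10.5% of coding genes with no such overlap. Levels per kilobase divide by unshared exon length (GENCODE 29). Counts were fitted whole: filterByExpr (minimum count 10, minimum total 15), TMM, edgeR 4.0.16's robust quasi-likelihood F-test (R 4.3.3), Benjamini-Hochberg over 16690 genes. SE is the log2 fold change's size over the root of F. The test was tested on simulated data.

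Members, lists and classes were chosen with earlier results of these data known. Members were given by library if called, at an unadjusted p under 0.05, or leading their class by p or abundance, with the 4 arrest genes; from each companion list came the called genes, else the 2 most abundant. A gene of the pathway check is not reported here. MTAP, CDKN2B-AS1 and the per-library values of RB1, PKMYT1 and CDK2 were added after values were seen. The remaining members are given to account for all 57. Alternatives were DESeq2 size factors, total counts, upper quartile, 2 filters, a replicate block, DESeq2 1.42.0, limma-voom 3.58.1, and leaving out each library. Intervals cover 95%.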

Additional observations from a re-analysis of the deposited data

How the results depend on the processing

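Over 14 alternatives, WEE1, PLK3, PLK2 and CDKN1B kept their direction and stayed past the threshold. PLK1 and CDKN1C kept their direction and passed in 9 of 14 each. With all libraries 4 members were higher and 2 lower; leaving out each library gave 2 to 4 higher members, and 365 to 923 genes called over all genes against 553. The log2 fold change of MYC changed sign without Vehicle replicate 3 (0.020; -0.25 to 0.020 over the left-out libraries), and that of CDC25A without TGFB1 replicate 1 (0.0025; -0.083 to 0.0025). The cause was not tested. FOXM1 passed in 3 alternatives, as given above.

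Same-numbered libraries showed no clear shared deviation (correlations -0.0296, 0.0418 and 0.00761 for numbers 1, 2 and 3). With 3 libraries a group, this cannot settle whether the numbers pair them. With the replicate block 601 genes were called, the same 6 members among them, and 2 of the 25 DNA replication and E2F target genes. Other scalings moved the median log2 fold change by -0.0141 to 0.00769. Low counts limit MYCL, CDKN2A and E2F5, and CCND2, CDKN2B and MYCN could not be tested.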
